A study of Macaca fascicularis with 2 samples.

Results

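The matrix metalloproteinases (MMPs), the ADAMTS proteases and their tissue inhibitors (TIMPs) were examined in single cells of articular cartilage (AC) and nucleus pulposus (NP), the gelatinous core of the intervertebral disc. Members were all genes whose symbol was MMP, ADAMTS or TIMP followed by a number. They came to 45 of the 21371 genes counted, namely 22 MMPs, 19 ADAMTS genes and 4 TIMPs. The tissue came from 2 wild-type, male, 3-year-old cynomolgus monkeys with no treatment named in the labels. Cells were released with a collagenase-based enzyme mix, and biotin was attached to their surface proteins. Sample tags (oligonucleotide barcodes given to each sample before pooling) were then added. Live cells were sorted and sequenced as 1 pooled library by TAS-seq, an amplification method for single-cell RNA on barcoded beads. The labels list 3 tissue samples (AC and NP of 1 monkey and AC of another), whereas the cells carry 4 tags (A951 to A954) that no label pairs with a tissue. The tags are therefore kept apart below but are not called AC or NP. All cells share 1 library, and the tags were not treated as biological replicates because they cannot be matched to the samples. No difference between groups of cells was tested. The spread over tags is the only measure of repeatability, and it can also hold differences between tissues or monkeys.

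Notochordal, ASPN/CILP and other cells were compared among 5653 cells that had 1 tag and passed the limits on genes and mitochondrial reads. Notochordal cells, the large vacuolated cells that remain in the NP from the embryonic notochord, were the 310 cells with 5 or more reads of both *KRT19* and *TBXT*. ASPN/CILP cells, which carry the cartilage matrix genes *ASPN* and *CILP*, were the 660 cells with 100 or more reads per 1000000 reads (rpm) of each. The remaining 4683 cells are called other cells, are not a single cell type and come from the pool of both tissues. No cell met both rules. The tags A951, A952, A953 and A954 held 67, 236, 5 and 2 notochordal cells, 36, 38, 220 and 366 ASPN/CILP cells, and 892, 851, 1152 and 1788 other cells. A cell had a median of 186370 reads and 4061 detected genes in the notochordal group, 271695 reads and 4540.5 genes in the ASPN/CILP group, and 191905 reads and 3722 genes among other cells.

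Markers that the rules did not use were higher in the groups named for them. Notochordal cells had 506 rpm of *NCAM1*, 119.6 rpm of *CDH2* and 98.7 rpm of *SHH*, against 27.6, 1.22 and 0.94 rpm in other cells. ASPN/CILP cells had 1803 rpm of *CRTAC1* and 774 rpm of *IGFBP6*, against 473 and 349 rpm in other cells, while *SULF2* (355 against 179 rpm) and *PRG4* (18795 against 11367 rpm) were higher by less than 2-fold. The 5 notochordal cells of tag A953 stood apart, since they carried 18136 rpm summed over the 6 genes of the ASPN/CILP marker list, against 1417 rpm in A951, 603 rpm in A952 and 399 rpm in A954. Most of this was *PRG4*, a surface lubricant of joint cartilage, at 16346 rpm, and other cells of the same tag held 18301 rpm of the list. These 5 notochordal cells also had a median of 494207 reads and 6612 detected genes. The medians were 154155 reads and 3733 genes in notochordal cells of A951, and 191336 and 4132 in those of A952. The main results on notochordal cells are therefore also given within A951 and A952, which hold 303 of the 310 cells.

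Cartilage and disc matrix is built from collagen fibrils and large aggregating proteoglycans, and its turnover is set by proteases that cut these and by inhibitors that block the proteases. Collagenases (MMP1, MMP8 and MMP13) open the collagen triple helix, gelatinases (MMP2 and MMP9) cut denatured collagen, and the stromelysins MMP3 and MMP10 cut proteoglycans and activate other MMPs. Membrane-type MMPs such as MMP14 act at the cell surface. ADAMTS4 and ADAMTS5 are the aggrecanases best known from osteoarthritis, ADAMTS2, ADAMTS3 and ADAMTS14 trim procollagen, and ADAMTS7 and ADAMTS12 are known to cut cartilage oligomeric matrix protein. TIMP1 to TIMP4 block MMPs, and TIMP3 also blocks ADAMTS proteases.

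Members ranged from present in nearly all cells to nearly absent. Over all cells, 9 of the 45 members had at least 1 read in more than 50% of cells, 14 in 10% to 50%, and 22 in less than 10%, of which 6 were under 1%. The 9 frequent members were *MMP3*, *TIMP2*, *TIMP3*, *TIMP1*, *MMP14*, *MMP23B*, *MMP16*, *ADAMTS9* and *MMP2*. Among other cells, 18 of the 23 members found in 10% or more of all cells had levels whose range over the 4 tags was less than 2-fold.

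**Figure D1:**
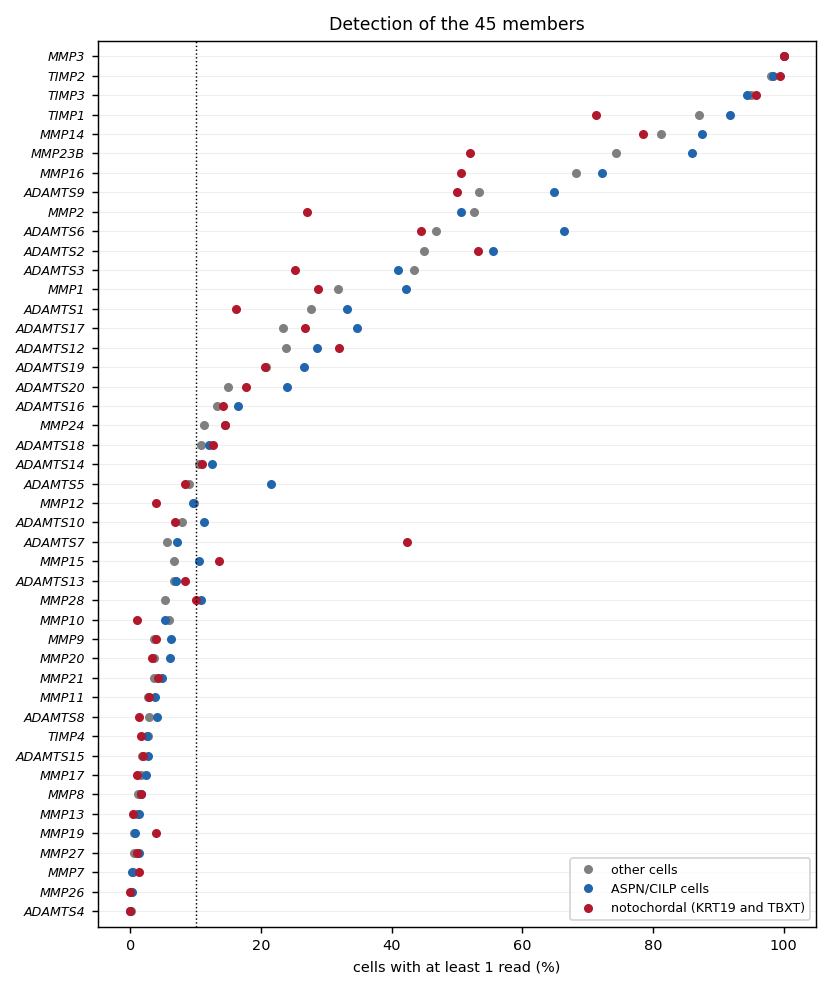
The horizontal axis gives the percentage of cells with at least 1 read, and each row is 1 of the 45 members, ordered by detection over all cells. Red, blue and gray points are notochordal, ASPN/CILP and other cells, and the dotted line marks 10%. *MMP3* sits at 100% in every group, and *ADAMTS7* has its red point at 42.3%, far to the right of its blue and gray points.

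The classical collagenases and aggrecanases had reads in few cells, apart from *MMP1* and *ADAMTS5*. *MMP13* had reads in 1 of 310 notochordal cells, 9 of 660 ASPN/CILP cells and 45 of 4683 other cells. *MMP8* had reads in 5, 11 and 57 cells of these groups. *ADAMTS4* had 6 reads in 5 other cells and none in the notochordal or ASPN/CILP cells. Rough upper limits, 3 divided by the number of cells, were 0.968% of notochordal and 0.455% of ASPN/CILP cells. These limits are not the exact intervals used for other shares. They bound the share of cells with a read at this depth, not of cells that express the gene. These limits and all intervals below cover counting error in this library only, since TAS-seq reads were counted without molecular identifiers and PCR copies are included. The stromelysin *MMP10* had reads in 3 notochordal, 35 ASPN/CILP and 275 other cells.

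*MMP3* (stromelysin 1) carried nearly all MMP reads of the cartilage-type cells, and notochordal cells had far less of it. Its pooled level, the summed reads of the gene over the summed reads of all cells of the group, was 9718 rpm in other cells and 6813 rpm in ASPN/CILP cells but 582 rpm in notochordal cells (exact 95% Poisson interval 577 to 588). Notochordal cells were thus 16.7-fold below other cells (log2 ratio −4.06). Other cells held 10625, 10615, 7691 and 10181 rpm in A951 to A954. Notochordal cells held 892, 267, 6053 and 563 rpm. The low levels were those of A951, A952 and A954, and the value near other cells was that of the 5 cells of A953. Within A951 the log2 ratio was −3.57, within A952 it was −5.31, and it was −4.74 when A953 and −2.51 when A952 was left out.

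Single cells showed that this difference lay in how many cells carried a high level. *MMP3* reads were found in 100% of the cells of all 3 groups, and the 10th percentile of cells was at a like level in each, 120 rpm in notochordal, 163 rpm in ASPN/CILP and 162 rpm in other cells. Above this base, 58.6% of other cells and 55.6% of ASPN/CILP cells had 1000 rpm or more, against 10 of the 310 notochordal cells (3.23%). The share of other cells past 1000 rpm was 59.8%, 56.5%, 54.4% and 61.8% in A951 to A954. The median cell had 176 rpm among notochordal, 1683 rpm among ASPN/CILP and 2318 rpm among other cells, and the 5 notochordal cells with the most *MMP3* held 62.5% of the group's *MMP3* reads. The median notochordal cell was therefore close to the lower end of the other cells. Whether the base level is RNA set free from lysed cells was not tested. Matrix genes abundant in other cells also had reads in notochordal cells. Reads of *COL2A1* and *BGN* were found in 100% of them, with a median of 82.5 and 62.5 reads per cell against 3451 and 2277 in other cells, and reads of *ASPN* in 38.7%, with a median of 0. In the opposite direction, *KRT19* was found in 10.3% and *TBXT* in 9.63% of other cells, shares that are limited in part by the rule for notochordal cells.

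**Figure D2:**
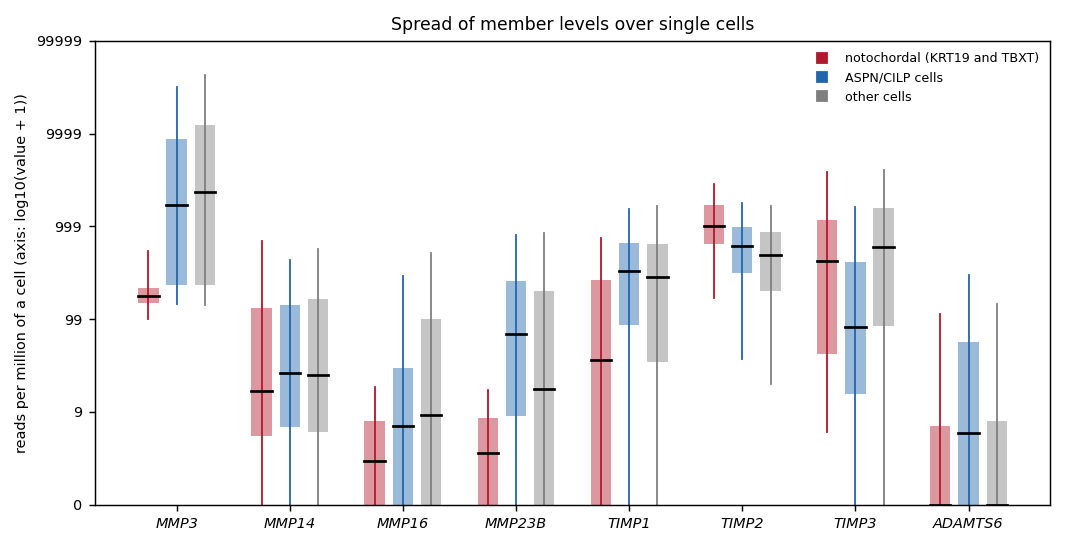
The vertical axis gives rpm of single cells on a log10(value + 1) scale for 8 members in notochordal (red), ASPN/CILP (blue) and other cells (gray). Boxes span the middle 50% of cells, black lines are medians and thin lines run from the 5th to the 95th percentile. For *MMP3*, the red box is narrow around its median of 176 rpm, while the blue and gray boxes stretch from 230 rpm to 8741 and 12355 rpm.

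Most other MMPs with a sizeable level in other cells were low in notochordal cells as well. A gene was compared when 10% or more of either group had reads of it, which 25 members met. Of these, 6 were at least 2-fold higher in notochordal cells and 9 at least 2-fold lower. Of all 9931 genes compared, 24.9% were higher and 11.6% lower by this measure, with a median log2 ratio of 0.32. The median of the 25 members was −0.06. *ADAMTS7*, *MMP15* and *MMP28*, all higher, met the 10% limit only through notochordal cells (42.3%, 13.5% and 10%). Other cells had 5.53%, 6.71% and 5.32%, so the count of higher members rests in part on that limit. Among the 9 MMPs compared, 2 were higher and 5 lower with a median of −3.20, among the 13 ADAMTS genes 4 were higher and 3 lower with a median of 0.25, and among the 3 TIMPs none was higher and 1 lower.

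*MMP2* (gelatinase A) was at 7.81 rpm in notochordal and 71.6 rpm in other cells, 9.17-fold lower, with levels of 5.16, 7.79, 23.4 and 0 rpm in notochordal cells and 80.8, 60.3, 106 and 51.8 rpm in other cells of A951 to A954. *MMP16*, a membrane-type MMP, was at 6.28 against 99.5 rpm, and its notochordal levels by tag were 4.75, 4.73, 50.3 and 0 rpm. *MMP23B* was at 16.5 against 179 rpm, with 37.3, 7.73, 105 and 0 rpm by tag. For these 3 genes no notochordal tag reached the lowest tag of other cells, and the 5 cells of A953 again had the highest notochordal value. *MMP14* (MT1-MMP), the main activator of pro-MMP2, stood out from them, with 125 rpm in notochordal and 127 rpm in other cells (log2 ratio −0.02). Its notochordal level was 126 rpm in both A951 and A952.

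*MMP1* (interstitial collagenase) showed that shares of positive cells and levels can part. Reads of *MMP1* were found in 28.7% of notochordal, 42.1% of ASPN/CILP and 31.7% of other cells. After each cell was thinned to 50000 reads, these shares were 10.7%, 13.1% and 11.9%, with 11, 12 and 184 shallower cells left out. The levels differed more widely, at 2.01, 91.6 and 98.9 rpm, which placed notochordal cells 49.1-fold below other cells. Cells with 100 rpm or more of *MMP1* numbered 0 among notochordal, 24 among ASPN/CILP and 137 among other cells. In ASPN/CILP cells the level was 2.53, 7.37, 133 and 81.9 rpm in A951 to A954. Thus 2 tags fell below and 2 within the range of other cells (62.0 to 153 rpm). In A954, 1 of the 366 ASPN/CILP cells held 57.2% of their *MMP1* reads and 5 held 88.2%.

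A few proteases were higher in notochordal cells, and among the members compared *ADAMTS7* differed most. Its level was 48.6 rpm in notochordal cells (interval 46.9 to 50.3) against 0.62 rpm in other cells and 0.29 rpm in ASPN/CILP cells, a 77.7-fold difference from other cells. Notochordal cells held 80.8, 39.7, 81.6 and 0 rpm in A951 to A954, where A954 had 2 such cells. Other cells held 0.39, 1.98, 0.38 and 0.35 rpm. The log2 ratio was 7.70 within A951 and 4.32 within A952, and the notochordal level was the higher one in A951, A952 and A953. In A954 the upper limit of the notochordal level was 14.0 rpm, so that tag shows no direction. *ADAMTS7* was found in 42.3% of notochordal cells (exact 95% interval 36.7% to 48.0%), 7.12% of ASPN/CILP cells and 5.53% of other cells, and in 34.4%, 1.08% and 1.42% after thinning. Of the 4683 other cells, 7 had 100 rpm or more. The part of free RNA in these shares was not tested.

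*ADAMTS12*, the close relative of *ADAMTS7*, was at 12.8 rpm in notochordal and 1.58 rpm in other cells (log2 ratio 3.01), but with 0.83 within A951 and 3.14 within A952 it passed 2-fold in only 1 of these tags. *ADAMTS2*, a procollagen N-proteinase, was at 58.0 against 24.3 rpm, with log2 ratios of 1.44 in A951 and 1.11 in A952. *MMP15*, a membrane-type MMP, was at 10.3 against 1.01 rpm, and 5 cells held 75.5% of its notochordal reads. *MMP28* (3.24 against 0.52 rpm) and *ADAMTS16* (2.89 against 0.94 rpm) rested largely on 1 cell each, which held 60.7% and 77.0% of the notochordal reads. Without the 5 cells of each group with the highest rpm of the gene, *ADAMTS2* and *MMP28* were no longer 2-fold higher and the log2 ratio of *ADAMTS16* turned from 1.62 to −0.39. Within tags, *ADAMTS16* was at −0.66 in A951 and 1.94 in A952. *MMP19* was not among the genes compared, with reads in 3.87% of notochordal cells, but it reached 9.13 rpm there against 0.02 rpm in other cells. The 5 notochordal cells with the most held 96.8% of these reads, and by tag the level was 49.2 rpm in A951 and 0.06 rpm in A952.

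The remaining ADAMTS genes split. *ADAMTS1*, which cuts proteoglycans, was at 2.80 rpm in notochordal and 76.5 rpm in other cells, 27.3-fold lower, with 0.57, 3.43, 0.44 and 3.80 rpm in A951 to A954. The lowest tag of other cells had 58.8 rpm. *ADAMTS3*, which trims procollagen II, was at 3.57 against 53.7 rpm (log2 ratio −3.91), with −3.82 within A951 and −4.55 within A952. Thus of the 3 procollagen N-proteinases, *ADAMTS2* was higher and *ADAMTS3* lower in notochordal cells, and *ADAMTS14* (1.41 against 3.12 rpm) was lower by little more than 2-fold when pooled and in A952, with a log2 ratio of −0.24 in A951. This call was lost under 6 alternatives, of which 1 was a stricter limit of 4-fold, and the ratio turned to 0.37 without the 2% of cells of each group with the most of the gene. *ADAMTS5* was at 0.50 rpm in notochordal and 10.4 rpm in other cells and had reads in under 10% of both, so that it was not compared. *ADAMTS6*, *ADAMTS9*, *ADAMTS17*, *ADAMTS18*, *ADAMTS19* and *ADAMTS20* were within 2-fold when pooled, although *ADAMTS17* had a log2 ratio of 2.19 in A951 and −1.86 in A952.

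**Figure D3:**
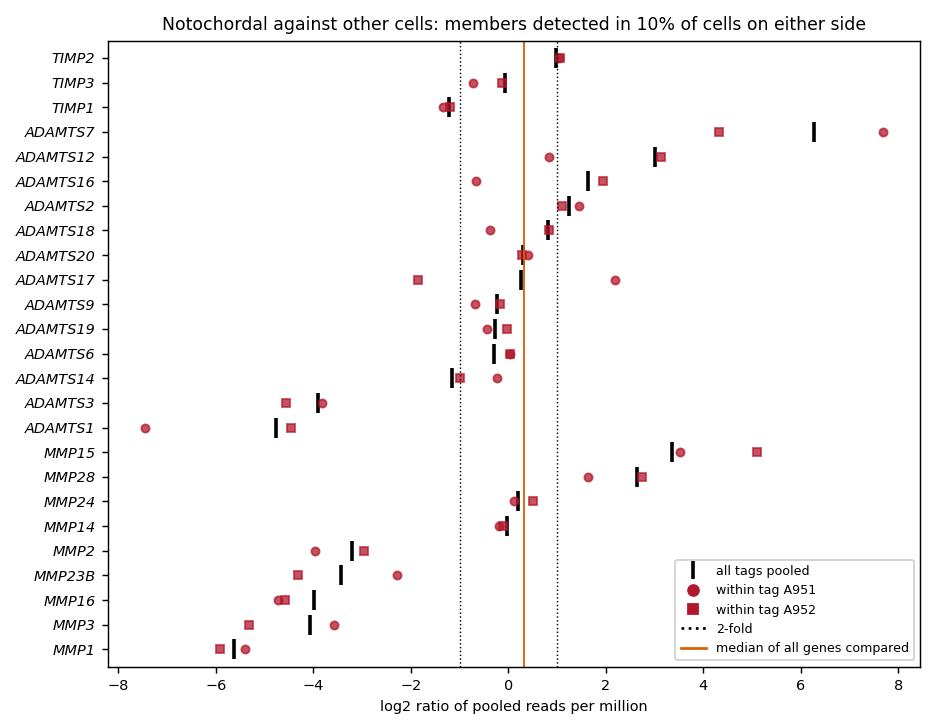
The horizontal axis is the log2 ratio of pooled rpm, notochordal against other cells, for the 25 members compared. Black bars pool all tags, circles and squares are the ratios within A951 and A952, dotted lines mark 2-fold and the orange line is the median of all genes compared (0.32). *MMP1*, *MMP3*, *MMP16*, *MMP23B* and *MMP2* lie at or left of −3.20 for pooled tags, and *ADAMTS7* lies farthest to the right at 6.28.

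Of the 3 inhibitors compared, 1 was at least 2-fold lower in notochordal cells. *TIMP2* was at 1188 rpm in notochordal and 603 rpm in other cells (log2 ratio 0.98, 1.05 within A951 and 1.06 within A952). Its level was 1182, 1197, 860 and 2442 rpm in the notochordal cells of A951 to A954 and 572, 572, 568 and 649 rpm in other cells, so every notochordal tag lay above every tag of other cells. *TIMP3* was at 1071 against 1119 rpm, and its notochordal range of 777 to 1263 rpm over tags overlapped that of other cells (928 to 1285 rpm). *TIMP1* was lower in notochordal cells, at 207 against 482 rpm (log2 ratio −1.22), and its 4 notochordal tags (198, 210, 217 and 45.6 rpm) lay below the lowest tag of other cells (434 rpm). *TIMP4* had reads in 1.61% of notochordal and 2.67% of other cells.

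Summed over genes, TIMP reads were 3.23 times the MMP reads in notochordal cells, 0.22 times in ASPN/CILP cells and 0.21 times in other cells. These are ratios of reads, not of molecules, because longer transcripts can give more reads. By tag, the ratio was 1.91, 5.88, 0.36 and 6.62 in notochordal cells, 0.37, 0.26, 0.21 and 0.20 in ASPN/CILP cells, and between 0.21 and 0.24 in other cells. The 5 notochordal cells of A953 lay within the range of the ASPN/CILP cells, unlike those of the other tags. The MMP sum was 765, 7345 and 10309 rpm in notochordal, ASPN/CILP and other cells, of which *MMP3* made up 76.1%, 92.8% and 94.3%. Without *MMP3* the sums were 183, 532 and 592 rpm. The pooled ADAMTS sums were close to one another, at 181, 216 and 226 rpm, led by *ADAMTS2* in notochordal cells and by *ADAMTS1* in ASPN/CILP and other cells. In some tags another gene led, *ADAMTS6* in ASPN/CILP cells of A951 and A954. In A953 it was *ADAMTS3* in other cells and *ADAMTS7* in notochordal cells.

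**Figure D4:**
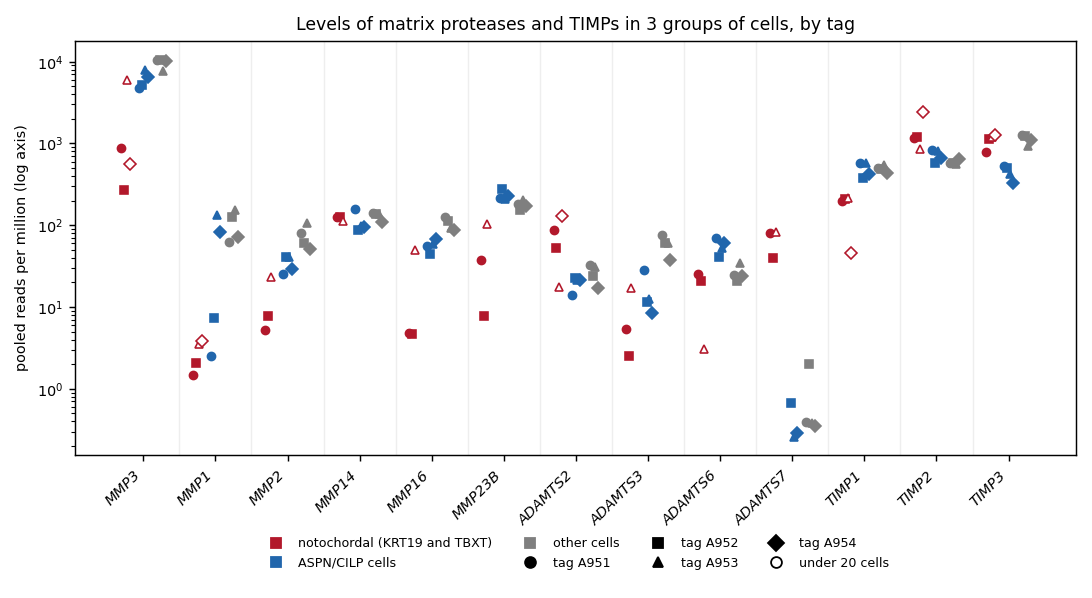
The vertical axis gives pooled rpm on a log axis for 13 members in notochordal (red), ASPN/CILP (blue) and other cells (gray). Each symbol is 1 tag (circle A951, square A952, triangle A953, diamond A954), open symbols rest on fewer than 20 cells, and levels of 0 are not drawn. Red symbols of A951 and A952 lie below the gray ones for *MMP3*, *MMP1*, *MMP2*, *MMP16*, *MMP23B*, *ADAMTS3* and *TIMP1* and above them for *ADAMTS2*, *ADAMTS7* and *TIMP2*.

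Genes that act with these proteases were set beside them. Of 42 such genes listed, 38 were counted and 33 compared, of which 7 (21.2%) were at least 2-fold higher in notochordal cells and 13 (39.4%) lower, against 24.9% and 11.6% of all genes compared. *KLK8*, a secreted serine protease, was at 115 rpm in notochordal and 2.07 rpm in other cells, with 257, 86.1, 0 and 87.5 rpm in A951 to A954. *ADAM33* was at 99.1 against 14.9 rpm and *HTRA1*, a serine protease of cartilage matrix, at 2360 against 1115 rpm. Among the lower genes, *FAP*, a cell-surface protease, was at 9.55 against 286 rpm, *FURIN*, which activates membrane-type MMPs and ADAMTS proteases, at 227 against 1021 rpm, and *RECK*, a membrane-bound MMP inhibitor, at 17.5 against 73.6 rpm. Of the matrix substrates, *ACAN* (aggrecan) was at 14440 against 4268 rpm and *COL2A1* (type II collagen) at 1269 against 21617 rpm. In A951 and A952, *ACAN* was at 12980 and 15007 rpm in notochordal and 4789 and 5004 rpm in other cells.

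Other markers moved with the notochordal group. All 4 counted genes of a list of 8 dissociation-response genes (*FOS*, *FOSB*, *JUN* and *EGR1*) were at least 2-fold higher, with a sum of 6009 against 1358 rpm in other cells. *JUN* was the most abundant at 3104 rpm. By tag the sum was 8059, 5741, 1750 and 26.6 rpm in notochordal cells of A951 to A954. The osteoblast list was at 3384 against 932 rpm, of which *SPP1* alone made up 3380 and 874 rpm. The rest of that list, *BGLAP* and *IBSP* together, was lower in notochordal than in other cells. The mural list (3 genes) was at 80.1 against 10.3 rpm, led by *ACTA2*, with 5.82 rpm in A951 and 101 rpm in A952. The neutrophil list was at 1.77 against 52.8 rpm, led by *S100A9*, and was highest in other cells of A953 (160 rpm). The endothelial list stayed at 3.47 against 2.78 rpm and the immune and osteoclast list at 24.1 against 21.7 rpm. No gene of these lists was at 0 reads in either group. The part of the dissociation response and of these cell types in the levels of the proteases was not tested.

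ASPN/CILP cells were compared with the same other cells, so that this comparison shares its control with the first. Here 26 members could be compared, of which 2 were at least 2-fold higher (*ADAMTS6* and *MMP15*) and 4 lower (*ADAMTS3*, *ADAMTS10*, *MMP2* and *TIMP3*). Of all 10053 genes compared, 1.69% were higher and 3.98% lower. The median log2 ratio of the members was −0.08 and that of all genes 0.00. In other cells *MMP15* (6.71%) and *ADAMTS10* (7.84%) were under the 10% limit, which they met only through ASPN/CILP cells (10.5% and 11.2%). Markers of other cell types moved with this group as well. The osteoblast list was at 412 rpm in ASPN/CILP and 932 rpm in other cells, led by *SPP1*, with 939, 220, 341 and 429 rpm in the ASPN/CILP cells of A951 to A954. The neutrophil list was at 2.41 against 52.8 rpm, led by *S100A9*. The mural list was at 19.2 against 10.3 rpm, led by *ACTA2*, which with *MYH11* was at least 2-fold higher, and by tag it was at 13.3, 26.7, 8.32 and 25.4 rpm in ASPN/CILP cells. The dissociation-response list was at 1050 against 1358 rpm, the endothelial list at 2.96 against 2.78 rpm and the immune and osteoclast list at 25.3 against 21.7 rpm. No gene of these lists was at 0 reads in either group. The part of these cell types in the protease levels was not tested.

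*TIMP3* was the inhibitor that set ASPN/CILP cells apart. Its level was 379 rpm (interval 376 to 381) against 1119 rpm in other cells, 2.95-fold lower. The ASPN/CILP cells of A951 to A954 held 538, 505, 419 and 330 rpm, all below the other cells of every tag (928 rpm or more). The log2 ratio within tags was −1.26, −1.30, −1.15 and −1.75. Reads of *TIMP3* were found in 94.4% of ASPN/CILP and 94.9% of other cells, and the median cell had 81.4 against 604 rpm. *TIMP1* (480 against 482 rpm) and *TIMP2* (721 against 603 rpm) were within 2-fold.

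*ADAMTS3* was at 10.8 rpm in ASPN/CILP and 53.7 rpm in other cells, 4.96-fold lower, with log2 ratios of −1.43, −2.37, −2.29 and −2.16 in A951 to A954. *ADAMTS6* was at 57.2 against 26.0 rpm, and its 4 ASPN/CILP tags (70.1, 41.4, 52.9 and 60.2 rpm) lay above the highest tag of other cells (34.5 rpm), although the log2 ratio within A953 was 0.61. Without A954, *ADAMTS6* was less than 2-fold higher. It had reads in 66.4% of ASPN/CILP and 46.8% of other cells, and in 40.0% and 23.5% after thinning. *MMP2* was at 33.5 against 71.6 rpm, with log2 ratios of −1.67, −0.54, −1.39 and −0.82 by tag. The *MMP2* call was lost with ASPN/CILP cells set at 50 rpm or more, and at the stricter limit of 4-fold. *MMP15* (2.30 against 1.01 rpm) and *ADAMTS10* (1.26 against 2.99 rpm) were low in both groups and their ratios by tag ran from −1.90 to 2.29 and from −3.48 to −0.53. The log2 ratio of *MMP15* turned from 1.19 to −0.42 without the 5 top cells of each group and was 0.32 without A954. That of *ADAMTS10* was −1.24 when pooled, turned to 0.21 without the top 2% of cells of each group and was −0.95 without A953. Its call was lost under 7 alternatives, of which 1 was the stricter limit of 4-fold.

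*ADAMTS5* was at 16.1 rpm in ASPN/CILP and 10.4 rpm in other cells (log2 ratio 0.63) and had reads in 21.5% (18.4% to 24.8%) and 8.90% (8.10% to 9.76%) of them. After thinning these shares were 10.5% and 4.07%. Its levels by tag were 7.70, 3.31, 35.5 and 6.48 rpm in ASPN/CILP cells and 5.92, 6.70, 19.2 and 8.52 rpm in other cells, so A953 was the highest tag in both groups. The share differed between the groups more than the level did, and the log2 ratio changed sign between tags.

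**Figure D5:**
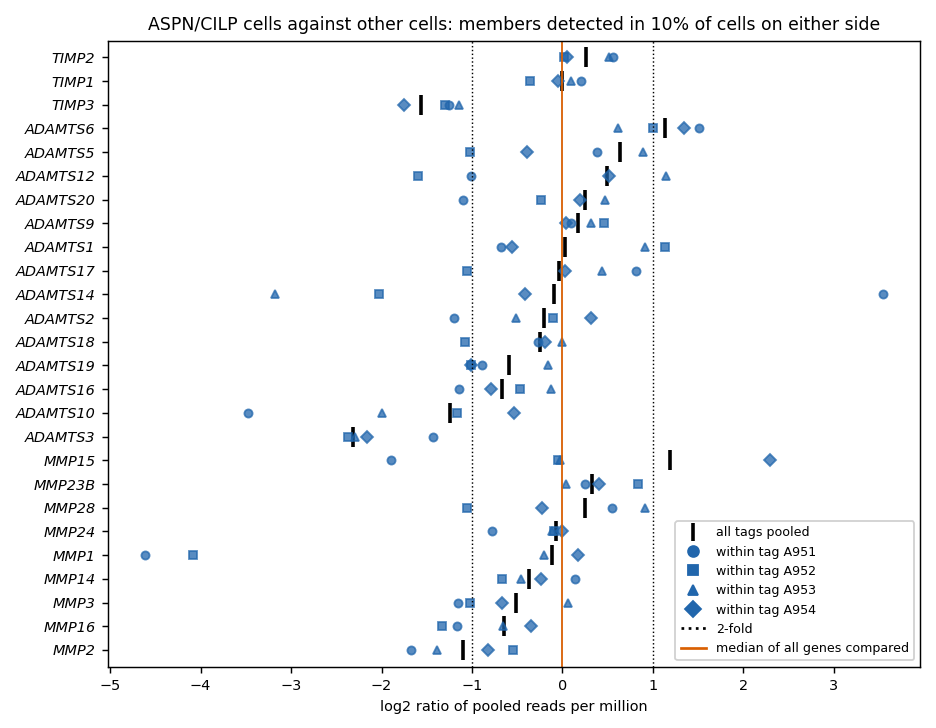
The horizontal axis is the log2 ratio of pooled rpm, ASPN/CILP against other cells, for the 26 members compared. Black bars pool all tags, symbols are ratios within the 4 tags, dotted lines mark 2-fold and the orange line is the median of all genes compared. For *TIMP3* and *ADAMTS3* all 4 tags lie left of −1, whereas *ADAMTS14* runs from −3.18 to 3.55.

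Several proteases had most of their reads in small numbers of cells, which were examined among the 5343 cells outside the notochordal group by a limit of 100 rpm chosen after the levels were seen. For *MMP1*, 161 such cells (3.01%) held 97.9% of the reads, with 2.37%, 3.15%, 3.79% and 2.74% of the cells of A951 to A954. For *MMP12* (macrophage elastase), 125 cells (2.34%) held 87.7% of the reads. Both kinds of cell were rich in *MMP3*. Cells high in *MMP1* had 24337 rpm of *MMP3* against 8743 rpm in the remaining cells, and cells high in *MMP12* had 39449 against 8444 rpm. By tag, *MMP3* was at 23938, 27815, 23592 and 23889 rpm in cells high in *MMP1* and at 10092, 9719, 7013 and 8949 rpm in the rest. In cells high in *MMP12* it was at 40922, 53860, 36659 and 36809 rpm. The difference had the same direction in all 4 tags for both genes. The 2 sets shared 20 cells, 12.4% of those high in *MMP1* and 16.0% of those high in *MMP12*.

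In the RefSeq gene table of *Macaca fascicularis* (assembly T2T-MFA8v1.1), *MMP7*, *MMP20*, *MMP27*, *MMP8*, *MMP10*, *MMP1*, *MMP3*, *MMP12* and *MMP13* follow one another as neighboring protein-coding genes, so *MMP1*, *MMP3* and *MMP12* lie side by side. Reads shared between such related genes cannot be told apart here, since the counting allowed reads that map to several places. The cells high in *MMP12* did not carry more immune RNA than the rest, with 11.7 against 22.5 rpm over the 6 genes of the immune and osteoclast list. The 17 cells high in *MMP9* (gelatinase B), known from osteoclasts and neutrophils, had more of that list, at 195 against 21.5 rpm.

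*ADAMTS1* and *ADAMTS5* were concentrated in the same way. For *ADAMTS1*, 465 cells (8.70%) held 96.2% of the reads, and for *ADAMTS5*, 110 cells (2.06%) held 86.7%. Like the cells high in *MMP1* and *MMP12*, both had more *MMP3* than the rest, 13535 against 8776 rpm in cells high in *ADAMTS1* and 16630 against 9027 rpm in those high in *ADAMTS5*, in all 4 tags. They shared 30 cells, 27.3% of those high in *ADAMTS5* and 6.45% of those high in *ADAMTS1*. *MMP14*, *MMP16* and *MMP23B* were spread more widely, with 1728, 1276 and 1836 cells at 100 rpm or more. Cells high in *MMP14* had 7891 rpm of *MMP3* against 9998 rpm in the rest, and cells high in *MMP23B* had 7729 against 10261 rpm, lower in all 4 tags for both genes. Cells high in *MMP16* had 9314 against 9224 rpm, higher in A951 and A952 and lower in A953 and A954. Among other cells thinned to 50000 reads, 45 pairs of 10 members were examined (*ADAMTS3*, *ADAMTS9*, *MMP2*, *MMP3*, *MMP14*, *MMP16*, *MMP23B*, *TIMP1*, *TIMP2* and *TIMP3*). No pair had a rank correlation across cells of 0.3 or more, or of −0.3 or less, in every tag. Pairs with *MMP1*, *MMP12*, *ADAMTS1* or *ADAMTS5* were not examined in this way.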

How the data were processed

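The authors deposited whole-number read counts per gene and cell. Per the paper's methods and the submitters' processing notes, they aligned reads with HISAT2 2.2.1 and assigned them with featureCounts 2.0.2 to Ensembl genes, combining spliced, unspliced and ambiguous reads. The genome build is not given in the sources used here. A second matrix of 1358 cell columns, which no sample label names, was not used. Of 5723 cells, 42 doublets and 7 cells without a tag were removed by the deposited tag calls, and 21 more by the limits of 200 to 9000 genes and under 5% of reads from 13 mitochondrial genes.

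Levels are pooled reads per 1000000 reads (rpm). A 2-fold difference was called among genes with reads in 10% of the cells of either group. A group with fewer than 3 reads was set to 3. Members with a 2-fold difference in either comparison, the TIMPs and the best-known collagenases, stromelysins and aggrecanases were named by rule. *MMP9*, *MMP12*, *MMP19* and the cells high in a member were chosen after their values were seen. Members and lists were chosen with earlier results of these data known. *MMP25* was not among the genes counted. The genes that act with these proteases are not reported here for ASPN/CILP cells. Analyses used Python 3.11.15, numpy 2.4.6, scipy 1.17.1 and pandas 2.3.3 and were tested on simulated data.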

Additional observations from a re-analysis of the deposited data

Results flagged for a closer look

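In 32 sets of 4 tags, an outlying tag was looked for. Chance alone gives such a tag in about 1 in 20 sets if the tags are repeats of each other, which is not known here. Among other cells, *MMP3* in A953 (7691 rpm) and *TIMP2* in A954 (649 rpm) lay apart from the other 3 tags. Among ASPN/CILP cells this held for *ADAMTS2* in A951 (14.1 rpm), *ADAMTS5* in A953 (35.5 rpm) and *ADAMTS14* in A951 (26.0 rpm). One cell held 99.2% of the *ADAMTS14* reads of that tag.

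*ADAMTS12*, *ADAMTS14* and *MMP15* had ratios of opposite sign and more than 2-fold size in different tags when ASPN/CILP cells were set against other cells, a difference between tags that was not tested. The log2 ratio of *ADAMTS12* was 1.15 in A953 and −1.60 in A952, that of *ADAMTS14* was 3.55 in A951 and −3.18 in A953, and that of *MMP15* was 2.29 in A954 and −1.90 in A951. *MMP15* had 3 reads in the ASPN/CILP cells of A951, and 1 cell held 58.4% of its reads in A954.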

How the results depend on the processing

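The counts and 25 named members were recomputed under 16 alternatives for notochordal and 17 for ASPN/CILP cells, 1 of them chosen after the data were seen (leaving out the same 2% of cells of each group). Of 581 ratios, 529 kept the same call, 29 lost it, 17 gained one and 6 changed sign. Since 1 alternative set the limit at 4-fold, some of the 29 were still past 2-fold. Notochordal members that were higher numbered 6, but 3 without the 5 cells with the most of each gene (a larger share of the smaller group), 2 with detection set at 5 reads and 6 without each tag. These 6 were not always the same genes, since *ADAMTS2* lost its call without A954 and *ADAMTS16* without A952. Notochordal members that were lower numbered 9, but 17 without the detection limit and 8 to 10 without each tag. Without the detection limit, *ADAMTS13* (log2 ratio 1.48), *MMP7* (2.02) and *MMP19* (8.73) were also at least 2-fold higher. For ASPN/CILP cells, those higher numbered 2, but 1 without the 5 top cells, with detection at 5 reads, with 1 rpm added, at 200 rpm of *ASPN* and *CILP* or by the median within tags, 4 at 50 rpm, 0 at 4-fold and 1 to 2 without each tag. Below 2-fold were *ADAMTS6* (0.94) and *MMP15* (0.32) without A954 and *ADAMTS10* (−0.95) without A953, and in notochordal cells *ADAMTS2* (0.97) and *ADAMTS14* (−0.93) without A954 and *ADAMTS14* (−0.97) without A952. ASPN/CILP members that were lower numbered 4, but 7 without the detection limit, 1 at 4-fold, 2 at 50 rpm and 3 to 4 without each tag. At 50 rpm, *MMP2* and *ADAMTS10* lost their calls. Without the detection limit, *MMP9* (log2 ratio 2.65) was also at least 2-fold higher in ASPN/CILP cells. Signs turned for *ADAMTS16* in notochordal cells (−0.39 without the 5 top cells, −0.47 without A952 against up to 1.93 without another tag), *ADAMTS14* there (0.37 without the top 2%), and in ASPN/CILP cells *MMP15* (−0.42 without the 5 top cells, −0.023 as the median within tags) and *ADAMTS10* (0.21 without the top 2%). The log2 ratio of *MMP3* in notochordal cells ran from −4.74 to −2.51 over the tags left out and was smallest without A952. That of *ADAMTS7* ran from 5.90 to 7.75. No paired test was run, and no label pairs the 4 tags with tissues or monkeys. Cells of the same tag were set against each other only in the ratios within tags, with no test. With 310 notochordal cells and PCR copies in the reads, ratios of members found in few cells are loose.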
